A study of Homo sapiens with 12 samples.

Results

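The region described here is a 4.5 Mb window of chromosome 19, chr19:28500000-33000000 on GRCh38, which spans 19q12 and holds CCNE1, URI1, ZNF536 and TSHZ3. Every deposited ATAC-seq peak with both ends inside the window was taken, and peaks of the 12 libraries that shared at least 1 bp were merged into regions. This gave 4469 regions from 8425 peaks, out of 2361798 regions from 4226167 peaks on the 24 chromosomes 1 to 22, X and Y. The window had been chosen because of its raised local background in these same data, so the level of that background and its difference between cell lines are given as descriptions with no test.

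Open chromatin was profiled by ATAC-seq, in which a transposase inserts adapters into accessible DNA, in KYSE150 and KYSE510, established human cell lines of oesophageal squamous cell carcinoma. Each line was studied as control cells and after silencing of HCP5, a long non-coding RNA, with 3 libraries in each of the 4 groups. Both lines were grown in RPMI-1640 with fetal bovine serum, and the groups share no other labelled treatment. The silencing method, the kind of control and whether the libraries of a group came from separate cultures are not given in the sources used here, so the p-values below measure the spread between libraries only.

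19q12 is known as a site of copy-number gain in several carcinomas, with CCNE1 as its usual candidate driver. CCNE1 encodes cyclin E1, which binds the kinase CDK2, promotes entry into S phase and is removed by the FBXW7 ubiquitin ligase. URI1, its neighbour, encodes an unconventional prefoldin that binds an RNA polymerase subunit. ZNF536 and TSHZ3 encode a zinc finger and a teashirt-family zinc finger transcription factor, both best known from the nervous system and from development.

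The promoters of the 4 genes that define the window are shown first, together with that of FAAP24, which carries the highest promoter peak in KYSE150. The promoters of TSHZ3 and ZNF536 were added after their values had been seen. Each run holds 250 bases before and 50 bases after a start site, written 5′ to 3′ on the gene's strand, from RefSeq on GRCh38.p14. Capitals mark GGGCGG (bound by SP and KLF factors), CCAAT (NF-Y) and CACGTG (the E-box bound by MYC) on either strand, so that GGGCGG also appears as CCGCCC and CCAAT as ATTGG. The 5 windows are chr19:29811741-29812040 on the plus strand for CCNE1, chr19:29941989-29942288 on the plus strand for URI1, chr19:31349387-31349686 on the minus strand for TSHZ3, chr19:30372134-30372433 on the plus strand for an internal start of ZNF536, and chr19:32971992-32972291 on the plus strand for FAAP24.
CCNE1: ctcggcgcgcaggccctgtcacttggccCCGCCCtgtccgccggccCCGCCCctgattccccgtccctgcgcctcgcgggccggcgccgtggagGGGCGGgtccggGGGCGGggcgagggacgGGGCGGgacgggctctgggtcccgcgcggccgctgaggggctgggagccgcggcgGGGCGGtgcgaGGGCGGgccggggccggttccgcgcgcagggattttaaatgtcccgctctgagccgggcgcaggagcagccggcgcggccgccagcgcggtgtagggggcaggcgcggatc
URI1: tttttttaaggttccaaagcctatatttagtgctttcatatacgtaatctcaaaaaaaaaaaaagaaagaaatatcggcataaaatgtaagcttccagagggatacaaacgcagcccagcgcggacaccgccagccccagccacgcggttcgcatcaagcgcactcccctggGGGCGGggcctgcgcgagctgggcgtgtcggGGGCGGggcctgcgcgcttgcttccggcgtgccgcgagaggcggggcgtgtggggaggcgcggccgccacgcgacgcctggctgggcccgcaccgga
TSHZ3: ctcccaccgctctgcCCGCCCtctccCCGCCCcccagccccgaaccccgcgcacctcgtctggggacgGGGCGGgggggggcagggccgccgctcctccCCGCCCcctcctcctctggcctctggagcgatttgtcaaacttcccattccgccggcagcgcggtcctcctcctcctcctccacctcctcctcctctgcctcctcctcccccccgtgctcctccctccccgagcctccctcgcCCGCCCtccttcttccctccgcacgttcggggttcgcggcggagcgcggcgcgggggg
ZNF536: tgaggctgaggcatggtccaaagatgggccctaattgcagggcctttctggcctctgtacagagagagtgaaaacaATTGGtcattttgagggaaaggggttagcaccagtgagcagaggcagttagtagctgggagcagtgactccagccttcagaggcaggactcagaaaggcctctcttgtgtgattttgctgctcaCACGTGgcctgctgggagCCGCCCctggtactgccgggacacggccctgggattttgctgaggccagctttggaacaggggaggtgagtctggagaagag
FAAP24: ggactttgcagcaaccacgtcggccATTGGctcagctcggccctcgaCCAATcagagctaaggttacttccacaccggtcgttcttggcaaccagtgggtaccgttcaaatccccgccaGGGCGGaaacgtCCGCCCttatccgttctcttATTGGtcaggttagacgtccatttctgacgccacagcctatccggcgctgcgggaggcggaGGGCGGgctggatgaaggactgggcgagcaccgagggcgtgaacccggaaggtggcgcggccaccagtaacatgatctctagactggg

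The CCNE1 promoter was the richest of the 5 in G and C, at 81.0%, with 47 CpG pairs and 7 copies of GGGCGG. That of URI1 held 61.3% G and C and 2 copies, that of TSHZ3 76.0% and 5 copies, and that of FAAP24 61.0% with 3 copies and 3 CCAAT motifs. The internal ZNF536 promoter had only 4 CpG pairs, 1 GGGCGG, 1 CCAAT and 1 CACGTG. Over all 35116 RefSeq promoters of this length the median was 58.7% G and C and 14.0 CpG pairs. Among the 27 promoters of the window's protein-coding genes, GGGCGG was found in 23 (85.2%, against 45.0% of all promoters), CCAAT in 7 (25.9%, against 34.6%) and CACGTG in 4 (14.8%, against 7.26%). No window promoter held the E2F motifs TTTCGCGC or TTTGGCGC (0.515% and 0.652% of all promoters) or the AP-1 motif TGANTCA (7.71%). The set of all promoters also holds those of non-coding genes, which the 27 leave out. Some of the 27 overlap one another, such as those of C19orf12 and those of CEP89 and FAAP24. The shares are thus of unlike sets, and their differences were not tested. No motif searched contains another, both strands were searched throughout, and a match describes the letters only.

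Each peak has a height, the deposited pileup at its highest position, and a fold enrichment, which is (height + 1) / (local background + 1). The local background of every peak was solved from these values and divided by the library's implied background, the single background value most common among its peaks genome-wide. A background ratio of 1 therefore means that value. The sequencing depth is unknown. The implied background ranged from 0.0826 to 0.108 among KYSE150 libraries and from 0.18 to 0.217 among KYSE510 libraries, and the lists held 547125 to 630780 and 115868 to 135948 peaks, so the lines were called at different heights. Peak numbers and heights of the lines are therefore set side by side and not tested. Defining genes of squamous epithelium had a strong peak (FDR at most 1e-05) within 1 kb of the start in some library for 4 of 6 matched genes in KYSE150 (49.7% of all 15843 protein-coding genes with a promoter entry) and 5 of 6 in KYSE510 (57.5%), TP63 having none. In all 6 libraries of a line this held for 0 of 6 in KYSE150 (24.4% of all such genes) and 1 of 6, SFN, in KYSE510 (33.3%). None of the 3 matched markers of other cells (PTPRC, PDGFRB and ALB) had one in either line.

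The raised background did not lie over CCNE1 or URI1. In KYSE510 it formed a single stretch of 1752 kb, chr19:30333336-32085114, which began inside ZNF536 and ended just past LINC01837, a long non-coding RNA gene beyond TSHZ3. CCNE1 (chr19:29811991-29824312) and URI1 (chr19:29923657-30016612) lay outside it, toward the centromere. The stretch was located from the peak backgrounds themselves, as the interval that best split the log2 ratios into an inside and an outside level. Its edges are thus a description, and the window is called by its position rather than by CCNE1 in what follows.

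All 6 KYSE510 libraries gave nearly the same stretch when fitted alone. The first raised peak started between 30333336 and 30344759 and the last ended between 32061842 and 32085114. The median background ratio inside it was 11.0, 12.3 and 12.4 in the 3 control libraries and 11.1, 12.5 and 12.8 in the 3 silenced libraries. Outside it, but within the window, the medians were 1.75, 1.91 and 2.12 in control and 2.0, 1.92 and 1.76 in silenced libraries. The medians inside were 5.53 to 7.29 times those outside, and no library's inside median came near any outside median.

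The level was not flat within the stretch. A first step of 54.6 kb at its ZNF536 end, chr19:30333336-30387927, had library medians of 24.8 to 27.6, against 10.7 to 12.6 over the remainder. In 100 kb bins the median over libraries was 1.43 in the bin just before the stretch, 24.9 in the bin holding its start, 18.1 in the bin at 30600001 within ZNF536, 9.38 at 31700001, 11.9 in the last bin and 1.19 in the next. The drop at both ends fell between neighbouring bins. The bin with CCNE1 was at 3.67 and the bin with the first URI1 start at 2.26, both below every bin inside the stretch.

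**Figure D1:**
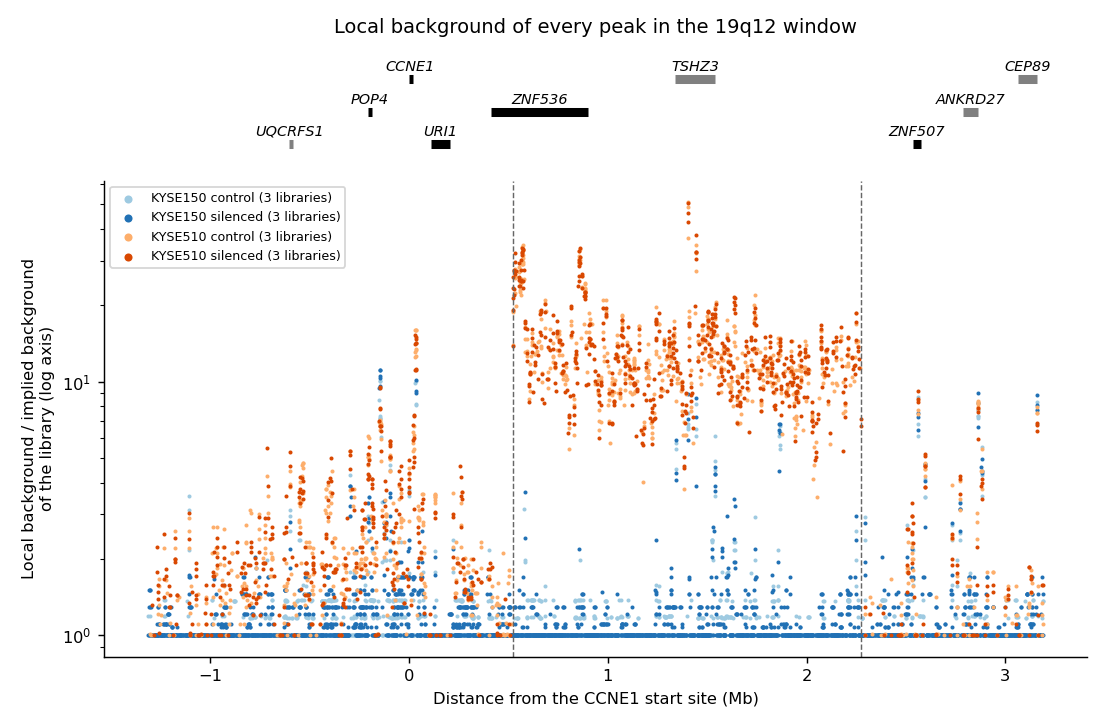
Local background of each window peak over the library's implied background (log axis) against distance from the CCNE1 start in Mb, with selected genes above (black, plus strand; grey, minus strand) and dashed lines at the ends of the raised stretch. KYSE510 points inside the stretch have library medians of 11.0 to 12.8, while CCNE1 and URI1 lie to its left among lower ratios.

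Across the genome the 3 whole 500 kb windows inside the stretch ranked 3, 4 and 5 of 4632 in KYSE510 by the 20th percentile of the background ratio, at 9.24, 9.22 and 8.84. Only 9 windows reached 5. The window with CCNE1 ranked 49, at 1.85. In KYSE150 the median ratio was 1.0 inside the stretch and 1.0 outside it in every library. That value is partly set by the calling, since 85.1 to 87.9% of KYSE150 window peaks had a height of 1, which passes only near the floor. When only peaks of height 3 or more were kept, the KYSE150 medians were 1.75 to 2.37 inside the stretch and 1.94 to 2.82 in the rest of the window, and those of KYSE510 were 11.0 to 12.8 and 1.8 to 2.22. The rise was thus measured in KYSE510 and not in KYSE150 at this cut too. Over strong peaks alone (FDR at most 1e-05) KYSE150 medians were 4.31 to 6.78 inside, on 5 to 8 peaks, and 3.11 to 5.44 in the rest. They were higher inside in each control library and the third silenced one, and lower in the first and second silenced ones. KYSE510 medians were then 13.6 to 16.6 and 3.54 to 4.46. The cause of the KYSE510 rise was not tested.

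The raised background changed what could be called. At the median background of the stretch a KYSE510 peak needed a height of 6 or 7 to pass a p-value of 0.01, against 2 elsewhere in the window and 1 in KYSE150. The lowest heights called in the stretch were 4 to 6. The KYSE510 libraries still had 180 to 207 peaks there, or 103 to 118 per Mb, against 68.2 to 86.2 per Mb before it and 30.6 to 43.7 after it. Their median height was 10 to 13 inside and 3 to 5 outside, while the median fold enrichment was 3.46 to 3.72 inside, 3.29 to 3.52 before and 3.39 to 4.61 after. Peaks of the stretch were higher in KYSE510 by height and close to the rest by fold enrichment, which divides by the background. Of the strong KYSE510 peaks, 50 to 60 per library lay in the stretch, 23 to 33 before it and 6 to 12 after it. The KYSE150 libraries had 5 to 8 strong peaks in it.

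Few regions were shared, in the window as in the whole genome. Of the 4469 regions, 2873 (64.3%, against 69.3% of all regions) were called in 1 library only. There were 46 (1.03%, against 1.94%) called in all 6 KYSE150 libraries and 97 (2.17%, against 2.05%) in all 6 KYSE510 libraries. In all 12 libraries 29 were called (0.649%, against 1.2%). Of the 97, 55 lay in the raised stretch. Only 2 of these 55 regions (3.64%) were within 1 kb of a start site, against 10 of the 42 (23.8%) in the rest of the window. In the stretch 23 lay inside a protein-coding gene, ZNF536 or TSHZ3, and 13 inside another gene. Of the 19 protein-coding genes of the window, only TSHZ3 lies whole and ZNF536 in part in the stretch. The start sites counted include those of non-coding genes, and the shares were not set against the starts available in each part. The difference between the parts was not tested, and nothing is read from it about the peaks.

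Regions seen in every library of one line and none of the other were rare, as they were genome-wide. There were 3 called in all 6 KYSE150 and no KYSE510 library, 0.0671% of the window's regions against 0.132% of all regions, 1 in ZNF536 and 2 in or near ZNF507. There were 2 called in all 6 KYSE510 and no KYSE150 library, 0.0448% against 0.0813%. One overlapped PLEKHF1, and the other, chr19:30784706-30785324 in the stretch beyond ZNF536, had heights of 56, 66 and 56 in control and 45, 57 and 60 in silenced KYSE510 libraries. The window was chosen on a line difference, so nothing is read from these shares.

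In the 29 regions called in all 12 libraries the lines could be set side by side at the same positions. Height over the implied background was higher in KYSE510 in all 12 of those in the stretch, by a median of 2.66 on the log2 scale (1.4 to 4.53). In the 17 others it was higher in 11, by a median of 0.21 (-0.34 to 1.85). Over all 28333 regions of the genome called in all 12 libraries the median was -0.46. The corresponding medians for the local background were 3.22, 0.53 and -0.21, and for fold enrichment 1.29, 0.64 and 0.21. At the CCNE1 promoter the height difference was 0.40 and at the URI1 promoter 0.77, both below each of the 12 regions in the stretch. These height contrasts are partly set by the calling. At the median background a KYSE510 peak needed a height of 6 or 7 in the stretch, against 2 elsewhere in the window and 1 in KYSE150. Regions low in KYSE510 could thus enter the set more readily outside the stretch.

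**Figure D2:**
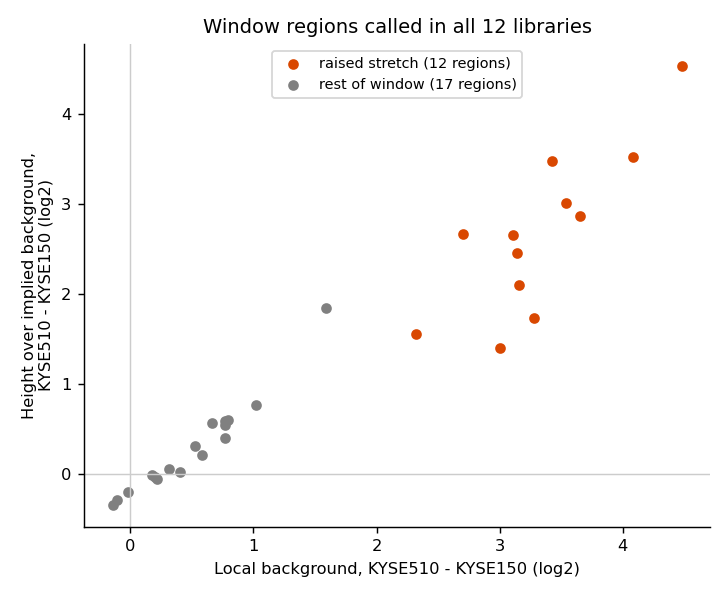
Difference between lines (KYSE510 minus KYSE150, log2) in height over implied background against the difference in local background, for the window regions called in all 12 libraries. The 12 regions of the raised stretch differ in height by 1.4 to 4.53, and the 17 others by -0.34 to 1.85.

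At CCNE1, the cyclin gene, a promoter peak was called in all 12 libraries, and the merged region covered the start site (chr19:29811613-29812128). Its height was 9, 3 and 4 in KYSE150 control libraries and 7, 5 and 2 in silenced ones. In KYSE510 it was 14, 9 and 13 in control and 11, 10 and 15 in silenced libraries. Control and silenced heights overlapped in both lines, and the change in rank score, explained with the tests below, was 0.01 ± 0.44 (SE) in KYSE150 and -0.04 ± 0.33 in KYSE510, with limma adjusted p-values of 1.0 and 0.992. A second peak downstream of the gene, chr19:29844339-29845967, stood at 12, 14 and 12 in control and 14, 16 and 9 in silenced KYSE150 libraries. It stood at 34, 28 and 29 in control and 28, 23 and 38 in silenced KYSE510 libraries, again with overlap, and stood higher than the promoter peak in all 12 libraries.

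At URI1, the prefoldin gene, the peak lay at the second annotated start site, 29942239 (chr19:29941777-29942827), whose promoter is printed above. Heights were 4, 6 and 3 in control and 3, 2 and 1 in silenced KYSE150 libraries. They were 14, 8 and 10 in control and 10, 8 and 8 in silenced KYSE510 libraries. The KYSE150 groups touched at 3, and the rank score was lower by 0.75 ± 0.33 after silencing, with an unadjusted limma p of 0.0435 and an adjusted p of 0.929, so it did not pass. In KYSE510 the change was -0.29 ± 0.36 (limma adjusted p 0.901). The first annotated start, 29923657, had a peak over its promoter in 1 KYSE150 library and no KYSE510 library.

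ZNF536 spans the start of the raised stretch (chr19:30225592-30713586, plus strand), with its 3 upstream start sites outside and an internal start site, 30372384, inside the first step. Over the upstream promoters a peak was called in at most 1 KYSE150 library each, and in 4 KYSE510 libraries for the one at 30227888. Over the internal one a peak was called in all 6 KYSE510 libraries and 1 KYSE150 library. Its heights were 25, 17 and 15 in control and 23, 22 and 28 in silenced KYSE510 libraries, with overlapping groups. The fold enrichment of these peaks was 3.07 to 4.55, below the 6.40 to 8.25 of the CCNE1 promoter peak in the same line, although their heights were larger. The gene body held 536 regions, of which 18 were called in all 6 KYSE510 libraries and 3 in all 6 KYSE150 libraries.

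The largest ZNF536 peak by its lowest height, chr19:30682641-30683350, reached 72, 72 and 81 in control and 69, 93 and 94 in silenced KYSE510 libraries. The region chr19:30344599-30345141 in the first step, picked after its values were seen, had 45, 65 and 50 in control and 66, 98 and 77 in silenced KYSE510 libraries. Its groups did not overlap, but the rank score change of 0.58 had an unadjusted limma p of 0.118. The region chr19:30666106-30666645, picked likewise, went the other way, with 99, 61 and 71 in control and 49, 54 and 46 in silenced libraries and a change of -0.84 (unadjusted limma p 0.0299, adjusted p 0.634).

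TSHZ3, the teashirt gene (chr19:31149876-31350877, minus strand), lies whole inside the stretch, and its promoter peak was called more often in KYSE150. A peak at its start (chr19:31348454-31349847) was called in all 6 KYSE150 libraries, with heights of 14, 6 and 5 in control and 7, 5 and 7 in silenced libraries. In KYSE510 it was called in 1 library, the third silenced one, at a height of 12 and a background ratio of 17.9. At the local background of that peak, 3.88, a height of 9 was needed to pass a p-value of 0.01. The other 5 KYSE510 libraries had no called peak there, and a low peak was not detectable. The promoter printed above was covered by a peak in 6 KYSE150 libraries and 0 KYSE510 libraries, the single KYSE510 peak lying beside it.

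Inside the gene the regions went both ways. Picked after their values were seen, chr19:31153833-31154567 was called in all 6 KYSE150 libraries, at 12 to 18, and in 3 KYSE510 libraries, at 9 to 14, and chr19:31334331-31335148 in 6 and 2. The region chr19:31214020-31214557 held the highest peak of the window in KYSE510, with heights of 233, 301 and 271 in control and 237, 315 and 307 in silenced libraries. In KYSE150 it stood at 28, 16 and 18 in control and 25, 19 and 25 in silenced libraries, among the 3 highest of that line too. Groups overlapped in both lines, with rank score changes of 0.51 (limma adjusted p 0.938) in KYSE150 and 0.08 (limma adjusted p 0.978) in KYSE510. A second intragenic region, chr19:31253928-31255035, had 73, 90 and 91 in control and 64, 108 and 91 in silenced KYSE510 libraries, and 15, 21 and 17 against 18, 6 and 15 in KYSE150. Neither of these 2 high regions is within 1 kb of an annotated start.

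Of the 19 protein-coding genes wholly inside the window, 11 had a peak within 1 kb of a start in all 12 libraries, against 48.4% of all protein-coding genes with a promoter entry. None had such a peak in no library. Besides CCNE1 and URI1 these were UQCRFS1, PLEKHF1, DPY19L3, PDCD5, ANKRD27, RGS9BP, NUDT19, CEP89 and FAAP24. All 11 lie outside the raised stretch.

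The divergent pair CEP89, a centrosomal protein gene, and FAAP24, a gene of the Fanconi anaemia core complex, shared the highest promoter peak of the window in KYSE150, chr19:32971832-32972599. Its heights were 27, 20 and 23 in control and 25, 21 and 19 in silenced KYSE150 libraries. In KYSE510 they were 39, 39 and 41 in control and 33, 28 and 35 in silenced libraries. The KYSE510 control libraries were all above the silenced ones by height (groups apart for 4.66% of all protein-coding genes with an entry), while the KYSE150 groups overlapped. The rank score changes were 0.03 (limma adjusted p 0.998) in KYSE150 and -0.32 (limma adjusted p 0.879) in KYSE510.

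ANKRD27, which encodes an endosomal trafficking protein, and RGS9BP, whose product anchors a photoreceptor signalling regulator, shared a second divergent peak, chr19:32674912-32675982. It stood at 14, 19 and 22 in control and 21, 21 and 14 in silenced KYSE150 libraries. It stood at 42, 37 and 29 in control and 33, 22 and 32 in silenced KYSE510 libraries. Both lines had overlapping groups.

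UQCRFS1, the Rieske subunit of respiratory complex III, had heights of 6, 8 and 10 in control and 10, 5 and 4 in silenced KYSE150 libraries, and 21, 21 and 18 against 23, 15 and 23 in KYSE510. DPY19L3, a C-mannosyltransferase gene, had 14, 7 and 10 against 16, 11 and 5 in KYSE150, and 24, 18 and 16 against 16, 20 and 23 in KYSE510. PLEKHF1, a lysosome and endosome adaptor gene, had a promoter region, chr19:29665202-29665760, at 5, 7 and 9 in control KYSE150 libraries and at 10 and 8 in the first and the third silenced one, the other having its peak upstream. In KYSE510 that region stood at 19, 23 and 17 against 12, 13 and 29. At these 3 promoters control and silenced heights overlapped in both lines.

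At PDCD5, a gene linked to apoptosis, the heights were 8, 9 and 8 in control and 4, 6 and 6 in silenced KYSE150 libraries, and the groups did not overlap. They were 14, 9 and 10 in control and 13, 19 and 20 in silenced KYSE510 libraries, in which they did. The rank score change was -0.49 (unadjusted limma p 0.137) in KYSE150 and 0.78 (unadjusted limma p 0.046, adjusted p 0.677) in KYSE510, so neither passed and the difference between lines was not tested. NUDT19, a nudix hydrolase gene, had 17, 11 and 9 against 14, 8 and 7 in KYSE150, and 20, 20 and 20 against 13, 16 and 16 in KYSE510. The KYSE510 groups of NUDT19 did not overlap by height.

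The other 8 genes were VSTM2B, POP4, C19orf12, ZNF536, TSHZ3, ZNF507, TDRD12 and SLC7A9. POP4, a subunit of RNase P, had heights of 14, 12 and 13 in control and 5, 10 and 11 in silenced KYSE510 libraries and at most 3 in KYSE150, where 1 silenced library had no peak. The KYSE510 groups did not overlap, with a change of -0.74 (unadjusted limma p 0.0733). SLC7A9, an amino acid transporter gene of kidney and gut, had peaks of height 1 in 4 KYSE150 libraries and no peak in KYSE510. ZNF507 was marked less by its promoter, at 1 to 3 in KYSE150 and 3 to 4 in the 5 KYSE510 libraries with a peak, than by an intragenic region, chr19:32373444-32374224. That region had 22, 23 and 26 against 23, 20 and 19 in KYSE150 and 47, 38 and 41 against 47, 39 and 47 in KYSE510.

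**Figure D3:**
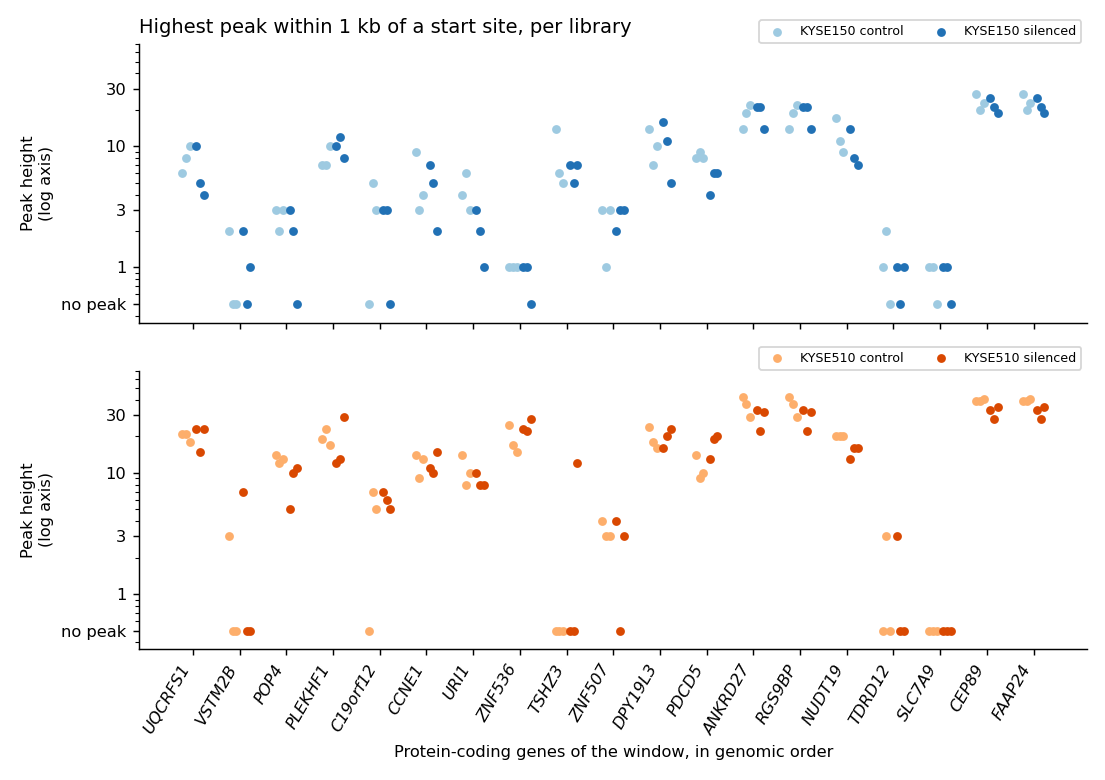
Height of the highest peak within 1 kb of a start site (log axis, with libraries without a peak on the lowest line) for the 19 protein-coding genes of the window in genomic order, 3 libraries per colour. TSHZ3 has a peak in all 6 KYSE150 libraries and in 1 KYSE510 library, and CEP89 and FAAP24 share the highest KYSE150 peak.

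The first treatment question was whether HCP5 silencing changed the window as a whole. The number of window peaks was 1016, 1039 and 1021 in control and 997, 1199 and 970 in silenced KYSE150 libraries. The means were 1025 ± 12.1 (SD, n = 3) and 1055 ± 125, and the two-sided exact permutation p was 1.0. In KYSE510 the numbers were 388, 359 and 352 in control and 349, 385 and 350 in silenced libraries. The means were 366.3 ± 19.1 and 361.3 ± 20.5, and the exact permutation p was 0.5. Groups overlapped in both lines. As a share of each library's peaks the window held 0.1769 ± 0.00431% and 0.1828 ± 0.00669% in KYSE150 (exact permutation p 0.4, n = 3) and 0.2945 ± 0.00911% and 0.282 ± 0.0211% in KYSE510 (exact permutation p 0.6, n = 3).

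The median background ratio over all window peaks was 1.0 in every KYSE150 library, so this test (exact permutation p 1.0) could show no difference there. Over KYSE150 regions called in all 6 libraries the silenced minus control difference was -0.296 (exact permutation p 0.1, the smallest possible), and over peaks of height 3 or more it was -0.125 (exact permutation p 0.4). In KYSE510 the median over all window peaks was 6.12, 8.96 and 7.69 in control and 8.11, 7.98 and 7.54 in silenced libraries. The means were 7.589 ± 1.42 and 7.876 ± 0.303, a difference of 0.286 with an exact permutation p of 0.8 and n = 3. This median mixes peaks inside and outside the raised stretch. Within the stretch alone the KYSE510 difference was 0.215 (exact permutation p 0.5), on ratios of 11.0 to 12.8. The raised background was measured in both treatments, and no difference beyond the spread of libraries was detected.

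In the number of strong peaks the KYSE150 groups did not overlap. KYSE150 control libraries had 22, 24 and 21 window peaks at an FDR of at most 1e-05 and silenced ones 20, 15 and 15. The means were 22.33 ± 1.53 and 16.67 ± 2.89, a difference of -5.67 with an exact permutation p of 0.1, the smallest that 3 against 3 libraries allow. As a percent of all such peaks of the library the difference was -0.0106 percentage points, with an exact permutation p of 0.2. At a stricter FDR of at most 1e-10 the difference in number was -1.0 (exact permutation p 0.7), and in the raised stretch alone -1.67 (exact permutation p 0.3). KYSE510 had 101, 81 and 87 in control and 87, 103 and 96 in silenced libraries (means 89.67 ± 10.3 and 95.33 ± 8.02, exact permutation p 0.5, n = 3). On the log2 scale, KYSE150 minus KYSE510, the silencing effect on the peak share differed by 0.11 (permutation p 0.165 over 400 relabellings). For the background ratio the same contrast gave -0.05 (permutation p 0.8). Every KYSE150 ratio was 1.0, so that value holds the KYSE510 effect alone, with its sign turned, and cannot compare the lines. After Benjamini-Hochberg adjustment over the 10 tests, no p was below 0.825.

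**Figure D4:**
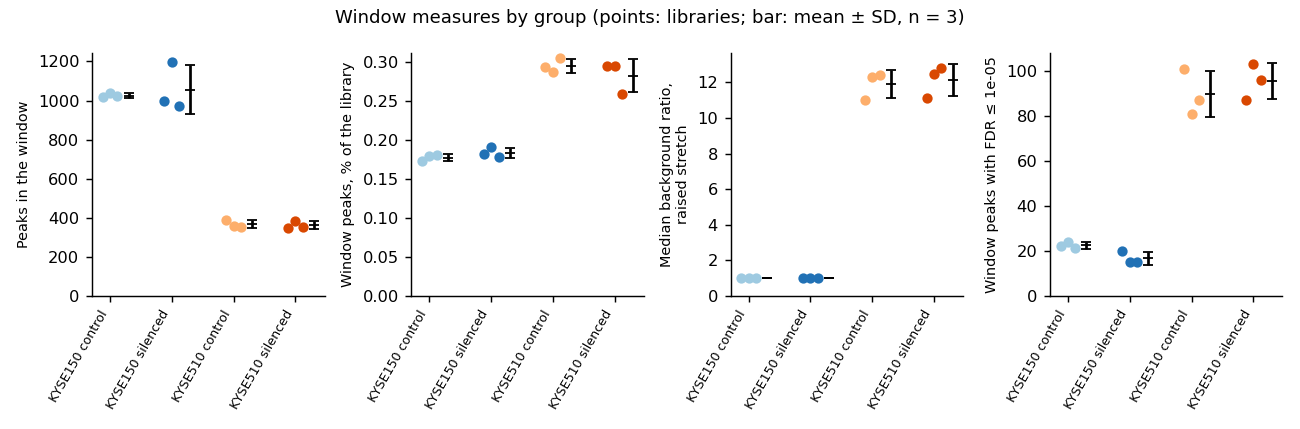
Window peak number, share of the library's peaks, median background ratio in the raised stretch and number of strong peaks per library (points) with mean ± SD (bars, n = 3) for the 4 groups. Control and silenced groups overlap in every panel but the strong peaks of KYSE150, which were 21 to 24 in control and 15 to 20 in silenced libraries.

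The second treatment question was whether single regions changed. Fold enrichments were ranked within each library and turned into normal scores, and limma was fitted over all regions called in all 6 libraries of a line. In KYSE150, 0 of 46 window regions passed an adjusted p of 0.05, against 0.0% of 45720 regions genome-wide. At an unadjusted p under 0.05 there were 0 higher (2.61% genome-wide) and 2 lower (2.72%). In KYSE510, 0 of 97 passed, against 0.0% of 48472, with 5 higher (3.95%) and 3 lower (3.34%) at an unadjusted p under 0.05. The smallest adjusted p in the window was 0.929 in KYSE150 and 0.565 in KYSE510. The median change was -0.03 in the window and 0.00 genome-wide in KYSE150, and 0.03 and -0.02 in KYSE510. The rank scores of control and silenced libraries did not overlap in 2 regions higher (6.46% genome-wide) and 2 lower (4.95%) in KYSE150, and in 7 higher (6.18%) and 7 lower (6.32%) in KYSE510.

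The regions with the smallest p-values show the size of what was not called. In KYSE150 they were the URI1 promoter described above and chr19:32336779-32337148 near ZNF507, at heights of 2, 2 and 1 in control and 1, 1 and 1 in silenced libraries (change -0.77 ± 0.34, unadjusted limma p 0.0425, adjusted p 0.929). Both had heights of 6 or less in every KYSE150 library. In KYSE510 the first was chr19:31232227-31232851 in TSHZ3, with 18, 20 and 10 in control and 7, 8 and 13 in silenced libraries, overlapping by height (change -1.33 ± 0.42, unadjusted limma p 0.00912, adjusted p 0.565). The next was chr19:32018007-32018505 in LINC01837, with 17, 10 and 14 in control and 23, 27 and 22 in silenced libraries, all silenced ones higher (change 0.96 ± 0.36, unadjusted limma p 0.0227, adjusted p 0.614).

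Of the 8 KYSE510 regions at an unadjusted p under 0.05, 7 lay in the raised stretch, which held 55 of the 97 regions tested, and the eighth was the PDCD5 promoter. Among them, picked after their values were seen, chr19:31958509-31958856 in LINC01837 had 20, 20 and 20 in control and 30, 41 and 33 in silenced libraries. The region chr19:31451694-31452117 beyond TSHZ3 had 26, 28 and 21 in control and 45, 46 and 47 in silenced libraries. Both had groups that did not overlap by height, with adjusted limma p-values of 0.625 and 0.652.

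**Figure D5:**
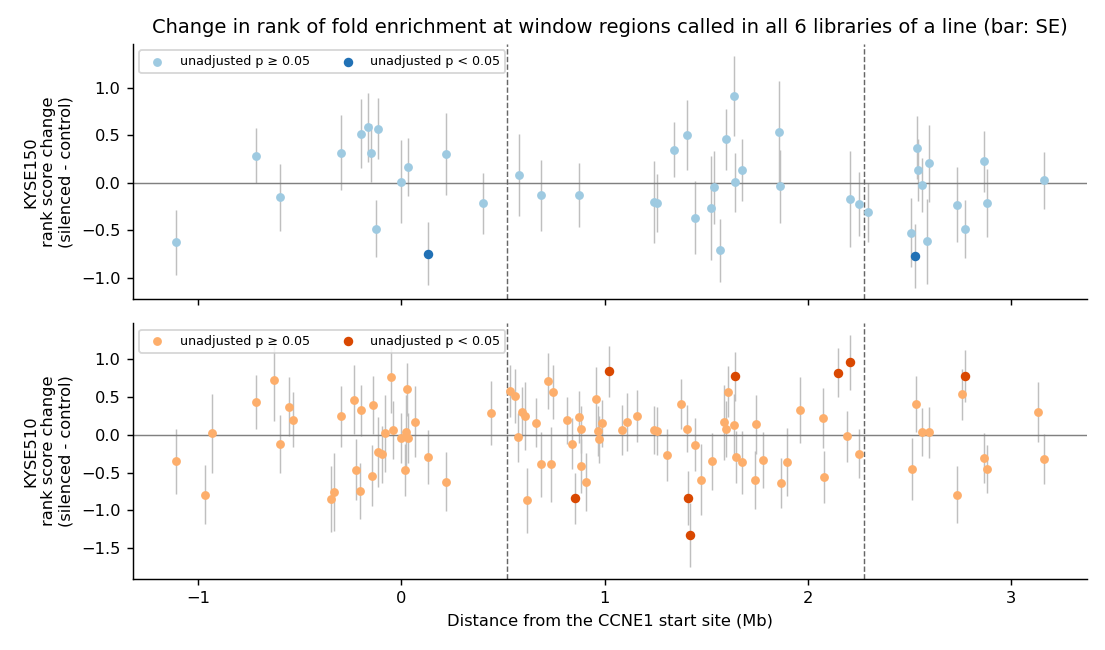
Change in rank score (silenced minus control, normal scores, bars SE) of window regions called in all 6 libraries of a line, against distance from the CCNE1 start in Mb, with dashed lines at the ends of the raised stretch. Dark points mark an unadjusted limma p under 0.05, 2 in KYSE150 and 8 in KYSE510, and none passed an adjusted p of 0.05.

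One-sided regions, present in each of the 3 libraries of one treatment and absent from the lists of the other, were counted without a test. In KYSE150 there were 15 in control only and 11 in silenced only of 4157 regions, 0.625% in all against 0.554% genome-wide (0.301% control only and 0.253% silenced only). Every one of them had heights of 1 or 2. The named ones were chr19:29860483-29860914 downstream of CCNE1, at 2, 1 and 2 in control libraries, and chr19:30587506-30588400 in ZNF536, at 1, 2 and 1 in silenced libraries.

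In KYSE510 there were 3 in control only (0.31% genome-wide) and 7 in silenced only (0.56%) of 999 regions, 1.0% in all against 0.87%. Of the 999 regions, 483 lay in the raised stretch, and nothing is read from where the one-sided ones fell. All 3 control-only regions lay in the raised stretch, the first in TSHZ3 at chr19:31290970-31291269 with heights of 22, 14 and 18. Of the 7 silenced-only regions 2 lay in the first step of the stretch inside ZNF536, at 15, 20 and 18 (chr19:30338872-30339141) and at 17, 22 and 15 (chr19:30365053-30365593). A further 2 flanked CCNE1, at 6, 5 and 9 just before its start (chr19:29810465-29810774) and at 9, 6 and 5 beyond its end (chr19:29836345-29836752). The named one by fold enrichment was chr19:28578882-28579413, at 6, 6 and 6. These counts were near the genome-wide shares.

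Genes that act with cyclin E at the entry into S phase lie outside the window and were set beside CCNE1 as a list of 12, of which 10 had a RefSeq promoter entry. A strong peak within 1 kb of the start was called in all 6 libraries for 7 of the 10 in each line, CDKN1B, E2F1, E2F3, FBXW7, SKP2, CDC25A and CCNA2, against 24.4% of all protein-coding genes with an entry in KYSE150 and 33.3% in KYSE510. E2F3, a transcription factor gene, had heights of 26 to 39 in KYSE150 and 52 to 81 in KYSE510, and SKP2, a ubiquitin ligase subunit gene, 20 to 37 and 53 to 77. RB1 had no strong peak in either line. Control and silenced heights did not overlap for 2 of the 10 in KYSE150 (SKP2 and CCNA2), against 6.85% of all protein-coding genes with an entry, and for 0 in KYSE510, against 4.66%. The CCNE1 promoter, at 2 to 9 in KYSE150 and 9 to 15 in KYSE510, was lower than those of E2F3 and SKP2, the 2 highest of the list. It was also below every height of CDKN1B (15 to 22), E2F1 (13 to 19) and CDC25A (14 to 24) in KYSE150. In KYSE510 it was likewise below E2F1 (18 to 30) and FBXW7 (16 to 27). In KYSE510 its heights overlapped those of CDKN1A (11 to 14), CDKN1B (10 to 18), RBL1 (6 to 13), CCNA2 (12 to 27) and CDC25A (12 to 34), while RB1 had no peak. In KYSE150 they overlapped those of the remaining matched genes.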

How the data were processed

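Peak tables of 12 ATAC-seq libraries were used. Per the submitters' processing notes, the tools named are Trimmomatic 0.36, Bowtie2 2.2.6, Picard 2.8.2, MACS2 2.1.1 and bedtools 2.25.0, with build GRCh38; their settings and how duplicates were treated are not given in the sources used here. Per the file headers, the deposited fold enrichment is a ratio of height to local background, the deposited pileup is a signal (the peak height), and the deposited p-value and FDR (a q-value) are on the linear scale. No library lists a p-value above 0.00987, and heights were whole numbers of at least 1. The authors' values are not normalised between libraries and depth is unknown, so heights are compared within a line or over the implied background. In the window, 7472 of 7472 peaks with a p-value above 1e-06 matched, within 2 percent, the Poisson tail at their own background.

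Peaks were merged at 1 bp overlap. Groups were compared within lines by two-sided exact permutation tests of 3 against 3 libraries (smallest p 0.1). Regions were tested with limma 3.58.1 in R 4.3.3, Benjamini-Hochberg adjusted over all regions of the line, after a test on simulated data. Python 3.11.15, numpy 2.4.6, pandas 2.3.3, scipy 1.17.1 and matplotlib 3.10.9 were used. Gene positions, strands and promoters came from RefSeq for GRCh38.p14. The window, its members and the gene lists were chosen with earlier results of these data known. Named were the 4 genes of the window's definition and genes with a promoter peak in all 12 libraries. Also named, per line, were the 3 regions with the highest minimum height, the 2 with the smallest p and 1 one-sided region per treatment. Other genes and regions given with values fall outside these rules and were picked with their values known, whether or not this is said beside them. Among them are POP4, SLC7A9, the peak downstream of CCNE1 and the further one-sided KYSE510 regions. Alternatives covered FDR at most 0.05, a height of at least 3, an inner window, 100 bp overlap, ranks of height, single libraries left out and a replicate block.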

Additional observations from a re-analysis of the deposited data

How the results depend on the processing

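No call was made, and none arose, among 200 alternatives of 18 results. Of the 186 outside the KYSE150 background ratio, whose main difference is 0, 154 kept direction or stayed near the main count. Near includes 20 one-sided regions at 100 bp overlap (0.419%, against 0.297% genome-wide), set against 26 in KYSE150. Some of the 154 were fixed in advance. Leaving out a KYSE150 library could not move the line difference in background ratio (-0.0534 each time). The replicate block could not move a difference in means within a line. Permutation tests of 3 against 3 could make no call. With peaks at an FDR of at most 0.05 the silenced minus control differences reversed to -20 peaks and -0.00592 percentage points of share in KYSE150 and to 11.3 peaks in KYSE510, and the differences between lines to 0.0523 (background) and -0.0396 (share). With heights of at least 3 they reversed to -5.67 peaks and -0.00221 percentage points in KYSE150, and to 1.33 peaks and a background ratio of -0.334 in KYSE510. The inner window gave -1.67 peaks in KYSE150. Chosen after seeing the data, the raised stretch alone gave 3.0 peaks in KYSE510, and strong peaks as a percent of all strong peaks gave -0.00127 in KYSE510. One-sided regions in KYSE150 fell to 0 at either stricter setting. That was 0 of 414 at an FDR of at most 0.05 (0.619% genome-wide) and 0 of 119 at heights of at least 3 (1.02%). At the same settings KYSE510 had 12 (1.6%, against 1.03% genome-wide) and 11 (1.18%, against 0.959%). Leaving out 1 library gave -41.8 to 72.7 peaks in KYSE150, -16.8 to 5.83 in KYSE510, background ratio differences of -0.447 (without the first control library) to 0.972 in KYSE510, and line differences of -0.19 to 0.0797. One-sided regions then numbered 74 to 100 in KYSE150 and 20 to 29 in KYSE510, since fewer libraries must agree. Genome-wide shares were not computed for these counts, so nothing is read from them. Strong peak differences were then -7.33 to -4.83 in KYSE150 and 1.33 to 11.3 in KYSE510, and share differences 0.00217 to 0.00859 and -0.0186 to -0.000255. At an FDR of at most 1e-10 the KYSE150 strong peak difference was -1.0. Whether replicate numbers pair libraries was not settled. Same-number correlations of deviations were small, 0.00862 to 0.088, but each library correlated best with its own number. Different-number correlations were -0.0615 to 0.0173. With the replicate block the KYSE150 differences were 30 peaks and -5.67 strong peaks (smallest possible p 0.25), the KYSE510 ones -5.0 and 5.67, and no region passed. Depth is unknown and limits every height of 1 or 2.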
